A study of Homo sapiens and Mus musculus with 66 samples.

Results

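The erythroid genes described here are GYPB, GYPE, ANK1, EPOR, TAL1, LMO2, KLF1 and NFE2, 8 of 20162 protein-coding genes on chromosomes 1 to 22, X and Y. They were chosen by name for what they do in red blood cell precursors, and the rule used no measured value. For each gene body, as GENCODE places it on hg19, the position relative to the regions called at or near the nuclear lamina was read from lists of K562 and HCT116 cells. K562 is a human leukemia cell line with erythroid features, and HCT116 is a human colorectal cancer line. Transcription was not analysed here, so whether either line expressed the genes was not checked.

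The nuclear lamina is a meshwork of lamins under the inner nuclear membrane, and chromatin that lies along it (lamina-associated domains, LADs) is mostly gene poor and weakly transcribed. Genes of another lineage are often found there, and genes that a cell uses tend to lie in the interior. In red cell precursors, the hormone erythropoietin acts through its receptor EPOR, the transcription factors TAL1, LMO2, KLF1 and NFE2 drive erythroid genes, and glycophorins and ankyrin build the red cell membrane and its skeleton.

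In cTSA-seq, a lamin-B1 antibody brings a peroxidase to the lamina, which puts biotin on nearby chromatin, and the biotinylated fragments are pulled down with streptavidin and sequenced next to an input. K562 cells were untreated and asynchronous. HCT116 cells were measured untreated and asynchronous in bulk and as counted samples of 1000000, 200000 and 50000 cells, sorted by FACS from untreated asynchronous cultures into G1, S and G2, and sorted as G1 cells 90 and 180 min after release from nocodazole (90m G1 and 180m G1). Nocodazole holds cells in mitosis, and the block lasted 16 h by the labels and longer by the study's methods. The labels give 2 pull-down libraries for each of these groups except the 1000000-cell sample, which has 1. Each line is a single cancer line, so a difference between K562 and HCT116 and a difference between experiments cannot be told apart.

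Each condition had 1 list of called regions in windows of 100 kb, already merged over replicates, with no signal and no read count. The lists therefore give neither the depth nor the spread between replicates of a value, and no test was made. In their place, the range over the 4 lists of asynchronous HCT116 cells (bulk, 1000000, 200000 and 50000 cells) served as the spread between experiments on 1 line, and a list made by the earlier TSA-seq method served as another determination for K562. The lists held 204 to 664 regions, and the regions covered 39.6% of the genome in K562 cTSA-seq, 26.9% in HCT116 bulk and 17.0 to 22.8% in the other HCT116 lists. The quantities read for each gene were whether at least 1 bp of its body lay in a region (called), the distance from its body to the nearest region on the chromosome, and the share of the sequence within 1 Mb on each side of its start site that lay in regions (its neighbourhood). A distance says where the next region begins, in steps of 1 window, and it is not a distance in the nucleus.

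None of the 8 genes was called in K562 or in HCT116. The count was 0 of 8 in K562 cTSA-seq, where 12.6% of all protein-coding genes were called, and 0 of 8 in K562 TSA-seq, where 10.1% were. It was also 0 of 8 in HCT116 bulk, against 12.4% of all genes. At the 5 stages, 0 of 8 were called in 90m G1 (17.7% of all genes), 180m G1 (6.15%), G1 (5.76%), S (6.48%) and G2 (5.38%). The counted samples gave 0 of 8 with 1000000 cells (5.79%), 200000 cells (6.0%) and 50000 cells (6.82%). At the background shares of these lists of called regions, 8 genes correspond to 0.431 to 1.42 called genes, so a count of 0 says little about erythroid genes as a group. What differed between the genes and between the lines was how near the next region came.

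A gene outside the called regions can be in the intermediate state of the authors' 3-state model or in the depleted state. For K562, a list of regions depleted by both methods (nonLADs) marked genes in the depleted state. The state of a gene outside both the called regions and the nonLADs stays open. Such a gene could be intermediate, or depleted by cTSA-seq and not by TSA-seq, or the reverse. In a nonLAD lay 6 of the 8 genes, against 56.2% of all protein-coding genes. The whole bodies of ANK1, EPOR, TAL1, KLF1 and NFE2 and 40.7% of LMO2, its start site included, were inside. GYPB and GYPE lay in no nonLAD, and the nearest one was 67.6 and 67.5 Mb away on chromosome 4. A list of depleted regions for HCT116 was not used here, so intermediate and depleted cannot be told apart in that line.

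**Figure D1:**
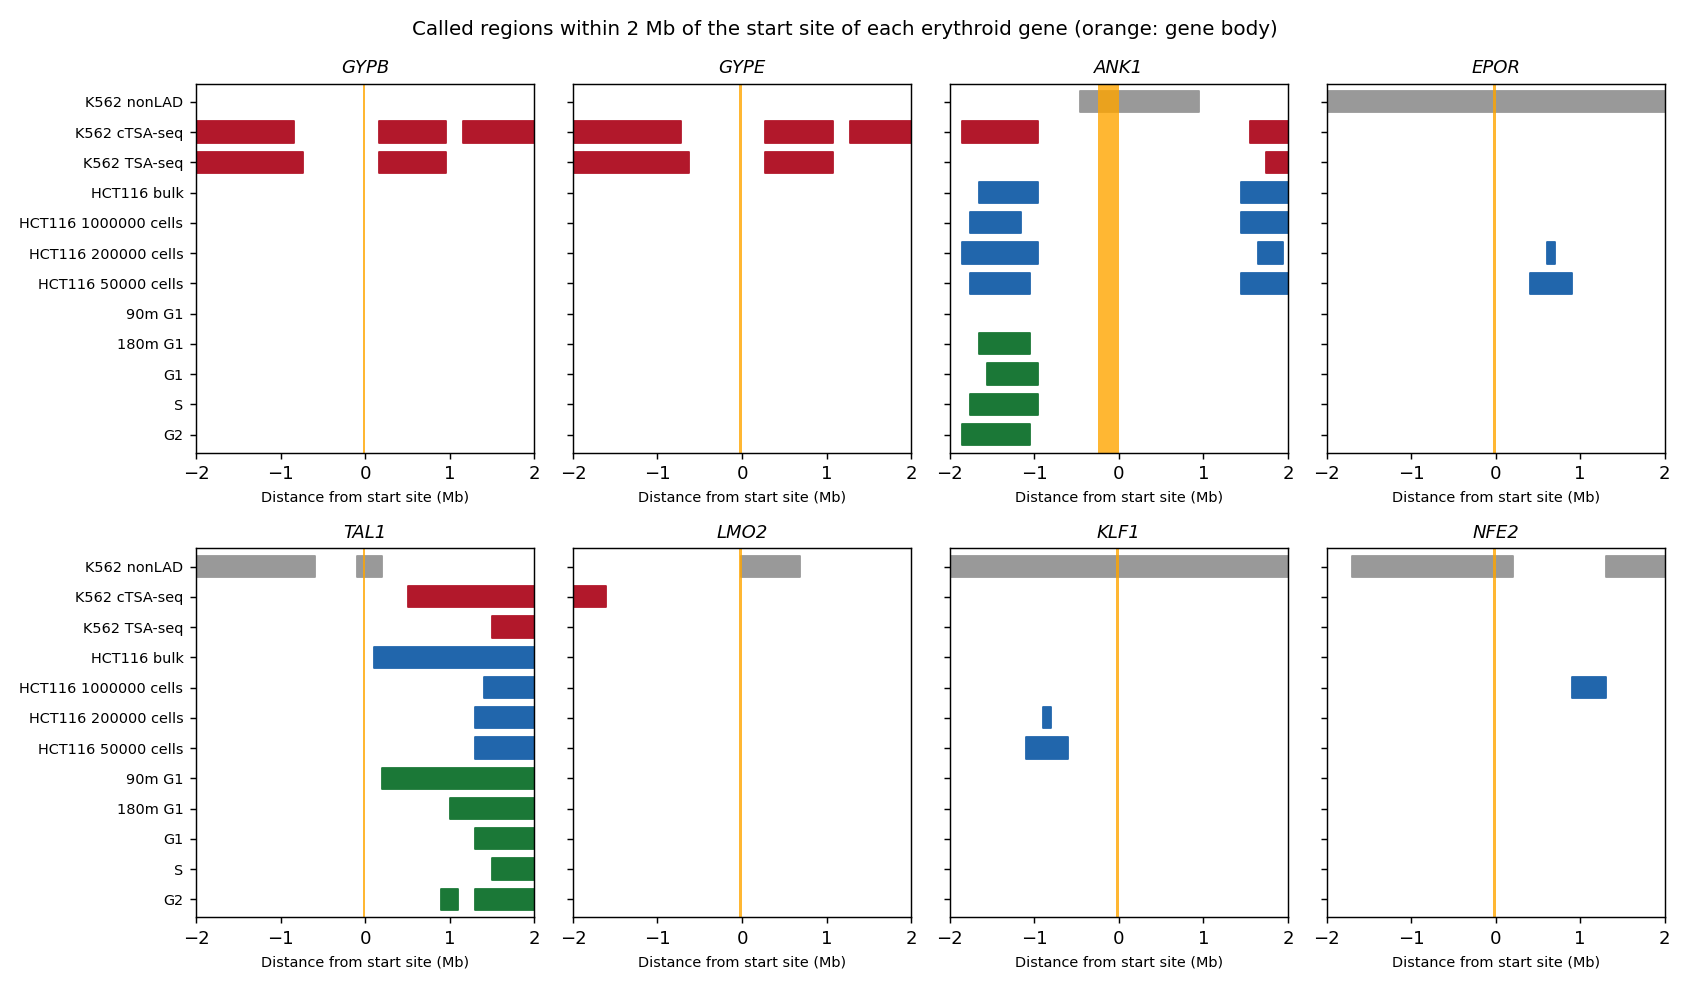
Called regions (bars) within 2 Mb of the start site of each of the 8 genes, with the distance in Mb along the chromosome on the x axis and 1 row per list; gray marks K562 nonLADs, red K562 regions, blue asynchronous HCT116 cells, green the 5 HCT116 stages and orange the gene body. No red, blue or green bar touches a gene body, 6 of the 8 bodies meet a gray bar, and GYPB and GYPE have K562 regions on both sides and no HCT116 region.

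Among the genes of membrane proteins, the glycophorin genes differed most between the lines. GYPB encodes glycophorin B, a sialic acid-rich protein of the red cell surface that carries blood group antigens, and GYPE is a close copy of it. GYPB lies at chr4:144917257-144940533 and GYPE at chr4:144792017-144826716, both on the minus strand, and 90.5 kb separate them. The 250 bases before the RefSeq start of each gene are shown because they let the reader see how alike the copies are, in a stretch where reads must be placed between them. They lie on the minus strand of hg19 at chr4:144940534-144940783 for GYPB and at chr4:144826713-144826962 for GYPE, and capitals mark the bases that differ where the promoters were laid on each other without gaps.
GYPB: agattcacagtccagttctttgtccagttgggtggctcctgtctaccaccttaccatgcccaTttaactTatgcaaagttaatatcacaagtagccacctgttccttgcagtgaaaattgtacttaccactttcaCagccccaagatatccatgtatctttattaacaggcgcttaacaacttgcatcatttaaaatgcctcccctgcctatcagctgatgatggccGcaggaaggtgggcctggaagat
GYPE: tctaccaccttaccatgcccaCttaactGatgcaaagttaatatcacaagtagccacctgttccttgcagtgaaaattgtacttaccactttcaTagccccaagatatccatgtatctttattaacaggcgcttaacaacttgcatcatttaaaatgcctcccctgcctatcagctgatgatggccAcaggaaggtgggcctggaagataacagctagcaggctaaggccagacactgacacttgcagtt

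The windows overlapped by 209 bases, of which 205 (98.1%) were identical and 4 differed. Over the whole gene bodies, 27.9% of the 50-base words of GYPB occurred in GYPE, and 18.7% of those of GYPE in GYPB. A read that lies wholly within identical sequence fits both genes equally well, whereas a longer read may reach a base that differs. The authors mapped with Bowtie2 at its default setting, which reports 1 of such equal placements. How many reads this concerned was not tested. The values of the 2 genes are also not independent, because the genes lie in neighbouring windows and share their nearest region in every list.

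In K562, GYPB and GYPE lay in a gap of 1.0 Mb between called regions. The gap, chr4:144100001-145100000, holds 7 protein-coding genes and ranked 384th by length among 687 such gaps, so its size was ordinary. The region on the upstream side of the genes, chr4:145100001-145900000, began 159 kb from GYPB and 273 kb from GYPE. On the other side a region of 2.6 Mb ended 817 kb from GYPB and 692 kb from GYPE. The neighbourhood was called to 48.0% for GYPB and 50.0% for GYPE. TSA-seq put the nearest region at the same border and gave 53.0% and 55.0%.

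In HCT116, the same genes lay in the longest stretch without a call. In the bulk list the nearest region began 37.1 Mb from GYPB and 37.2 Mb from GYPE, a distance that 99.7% of all protein-coding genes did not exceed. The stretch, chr4:83000001-182000000, measured 99.0 Mb, ranked 1st of 460 and held 328 protein-coding genes. In K562 71.2% of it was called. None of the neighbourhood of either gene was called in HCT116 bulk or in any other HCT116 list.

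The distance of GYPB varied among HCT116 lists because of short isolated regions. It was 37.2 Mb with 200000 and with 50000 cells, 37.4 Mb in G1 and 37.3 Mb in G2. With 1000000 cells it was 2.56 Mb, through a region of 0.2 Mb, and in S it was 4.46 Mb, through a single window. It was 7.56 Mb in 90m G1 and 29.7 Mb in 180m G1. GYPE gave 2.67 Mb with 1000000 cells, 4.57 Mb in S, 7.67 Mb in 90m G1, 29.8 Mb in 180m G1 and 37.2 to 37.5 Mb in the other lists. Every HCT116 value of both genes was above the K562 value, and the K562 distances of 0.159 and 0.273 Mb lay below the range of the 4 asynchronous HCT116 lists. In each HCT116 list the stretch around the genes was the longest without a call, between 64.5 Mb with 1000000 cells and 128 Mb in 90m G1.

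This difference ran along the chromosome and was not limited to the glycophorin genes. Of chromosome 4, 63.2% was called in K562 cTSA-seq and 60.2% in K562 TSA-seq, against 17.1% in HCT116 bulk and 10.6 to 16.6% in the other HCT116 lists. Whether the lack of HCT116 calls along the arm reflects position in the nucleus or the calling of regions was not tested.

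**Figure D2:**
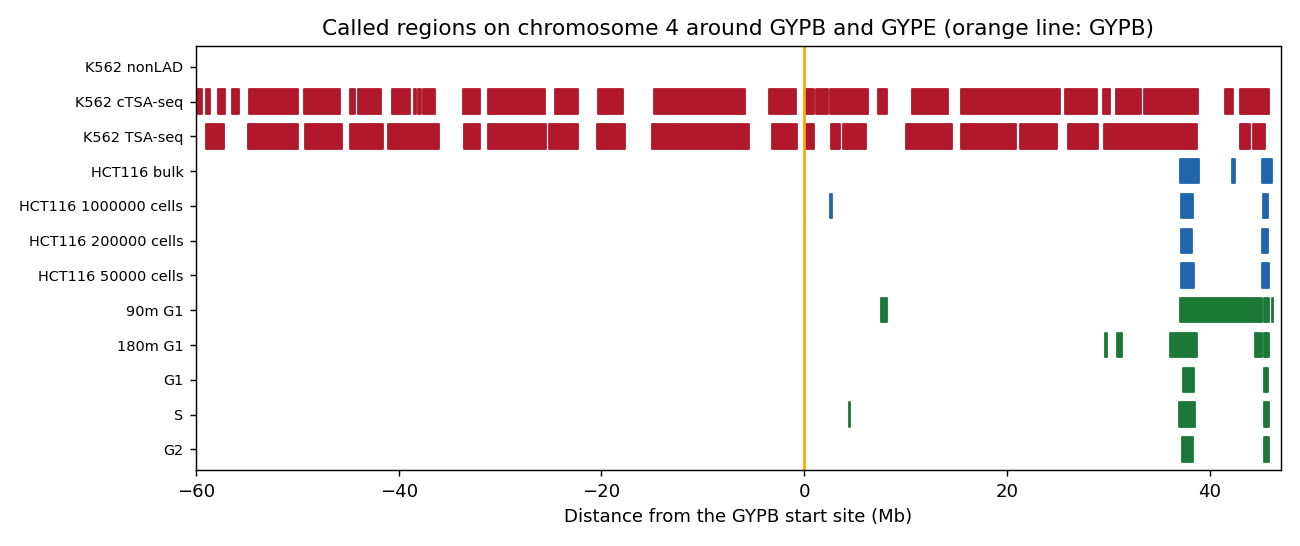
Called regions (bars) on chromosome 4 by distance in Mb from the GYPB start site, with 1 row per list in the colours of K562 (red), asynchronous HCT116 (blue) and HCT116 stages (green). The K562 lists call most of the arm around GYPB, whereas the HCT116 bulk list has no region between the left edge and 37.1 Mb, and single short regions appear with 1000000 cells and in S.

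ANK1 encodes ankyrin 1, which ties the protein skeleton to the red cell membrane. It lies at chr8:41510739-41754259 on the minus strand and is the longest of the 8 genes at 244 kb. The nearest region lay on its downstream side and ended at the same border, 711 kb from the gene, in K562 cTSA-seq, HCT116 bulk, G1, S and the 200000-cell list. The distance was 811 kb in 180m G1, in G2 and with 50000 cells, and 911 kb with 1000000 cells. All of these lists thus agreed within 2 windows on that border. In 90m G1 the region was absent, and the next one lay 19.8 Mb away. The K562 region was among those called by cTSA-seq only, and in K562 TSA-seq the nearest region lay on the other side at 1.75 Mb. At most 2.29% of the ANK1 neighbourhood was called in any list.

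EPOR, the erythropoietin receptor gene, lies at chr19:11487883-11495018, and KLF1, the gene of a zinc finger activator of erythroid genes, lies 1.5 Mb from it at chr19:12995236-12998015, so their values are not independent either. Both are short, 7.14 and 2.78 kb, and lie in gene-dense sequence with 62 and 67 other protein-coding start sites within 1 Mb, against a median of 22 over all genes. In K562 both lay inside 1 nonLAD of 19.9 Mb that starts at the end of the chromosome. The nearest K562 region, chr19:24400001-24600000, was 12.9 Mb from EPOR and 11.4 Mb from KLF1. TSA-seq gave the same 12.9 and 11.4 Mb.

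In HCT116 bulk the nearest region was 8.60 Mb from EPOR and 7.10 Mb from KLF1. It overlapped 6 protein-coding genes, all of them zinc finger genes of the ZNF family. In G1, S and G2 the distances were 8.40 to 8.50 Mb for EPOR and 6.90 to 7.0 Mb for KLF1, and with 1000000 cells they were 8.40 and 6.90 Mb. These 5 lists differed by at most 2 windows. With fewer cells, a further region appeared between the genes. It spanned chr19:12100001-12200000 with 200000 cells and chr19:11900001-12400000 with 50000 cells, where it overlapped 18 protein-coding genes. The distances were then 0.605 and 0.405 Mb for EPOR and 0.795 and 0.595 Mb for KLF1, and with 50000 cells 25.0% of the EPOR and 20.1% of the KLF1 neighbourhood was called. Neither 90m G1 nor 180m G1 had a region on chromosome 19, so no distance exists there, whereas the other HCT116 lists had 7 to 12. The K562 distances of both genes lay above the range of the 4 asynchronous HCT116 lists.

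TAL1, a basic helix-loop-helix factor that starts the blood programme, lies at chr1:47681962-47697897 on the minus strand. In K562 cTSA-seq, K562 TSA-seq and every HCT116 list its nearest region lay on the upstream side. These lists differed in how near that region came to the gene. It came to 102 kb in HCT116 bulk, 202 kb in 90m G1 and 502 kb in K562 cTSA-seq. It stayed at 1.00 Mb in 180m G1, 1.30 Mb in G1 and 1.5 Mb in S, and in G2 a separate region of 0.2 Mb lay at 0.902 Mb. The counted samples gave 1.40 Mb with 1000000 cells and 1.30 Mb with 200000 and with 50000 cells. K562 TSA-seq gave 1.5 Mb.

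The other end of the region lay at base 50800000 of chromosome 1 in K562 cTSA-seq, 180m G1, G1, S and the counted samples, at base 50900000 in HCT116 bulk, at base 50600000 in K562 TSA-seq and at base 50100000 in 90m G1. The genes it covered near TAL1 in bulk and not in the counted samples included CMPK1, FOXE3, FOXD2, TRABD2B, SLC5A9 and SPATA6. The TAL1 neighbourhood was called to 44.9% in HCT116 bulk, 39.9% in 90m G1, 24.9% in K562 cTSA-seq and 4.89% in G2, and to 0% in the remaining lists. The K562 cTSA-seq distance lay within the range of the 4 asynchronous HCT116 lists, 0.102 to 1.40 Mb. The order of the lines depended on the list, since K562 was 0.4 Mb farther than HCT116 bulk and 0.8 to 0.9 Mb nearer than the counted samples.

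LMO2, a LIM domain protein that bridges TAL1 to other DNA-bound factors, lies at chr11:33880122-33913623 on the minus strand. In K562 cTSA-seq the nearest region, chr11:31900001-32300000, was 1.58 Mb away, and it was one called by cTSA-seq only. TSA-seq gave 2.48 Mb. The HCT116 distances were 2.79 Mb in bulk, G1 and S cells and with 50000 cells, 2.69 Mb with 1000000 cells, 2.89 Mb with 200000 cells, 2.68 Mb in 180m G1 and 2.88 Mb in G2. These 8 lists lay within 0.206 Mb of each other, although the nearest region lay on the downstream side in 180m G1 and G2 and on the upstream side in the others. The exception was 90m G1 at 10.7 Mb. Both K562 values lay below the range of the 4 asynchronous HCT116 lists, 2.69 to 2.89 Mb, by 1.11 Mb with cTSA-seq and by 0.206 Mb with TSA-seq. No part of the LMO2 neighbourhood was called in any of these lists.

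NFE2, the erythroid subunit of a leucine zipper factor that pairs with small MAF proteins, lies at chr12:54685895-54694799 on the minus strand. Its nearest K562 region was 3.71 Mb away with both methods. In HCT116 the distance was 16.2 Mb in bulk and with 50000 cells, 16.3 Mb with 200000 cells, 20.4 Mb in S, 20.6 Mb in 180m G1, G1 and G2, and 50.8 Mb in 90m G1. With 1000000 cells it was 0.905 Mb, through a region of 0.4 Mb that overlapped 13 protein-coding genes, all of them olfactory receptor genes. This region alone put the K562 value within the range of the 4 asynchronous HCT116 lists. The stretch without a call around NFE2 measured 58.9 Mb in HCT116 bulk and ranked 2nd of 460, next to that of the glycophorin genes, and 48.0% of it was called in K562.

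**Figure D3:**
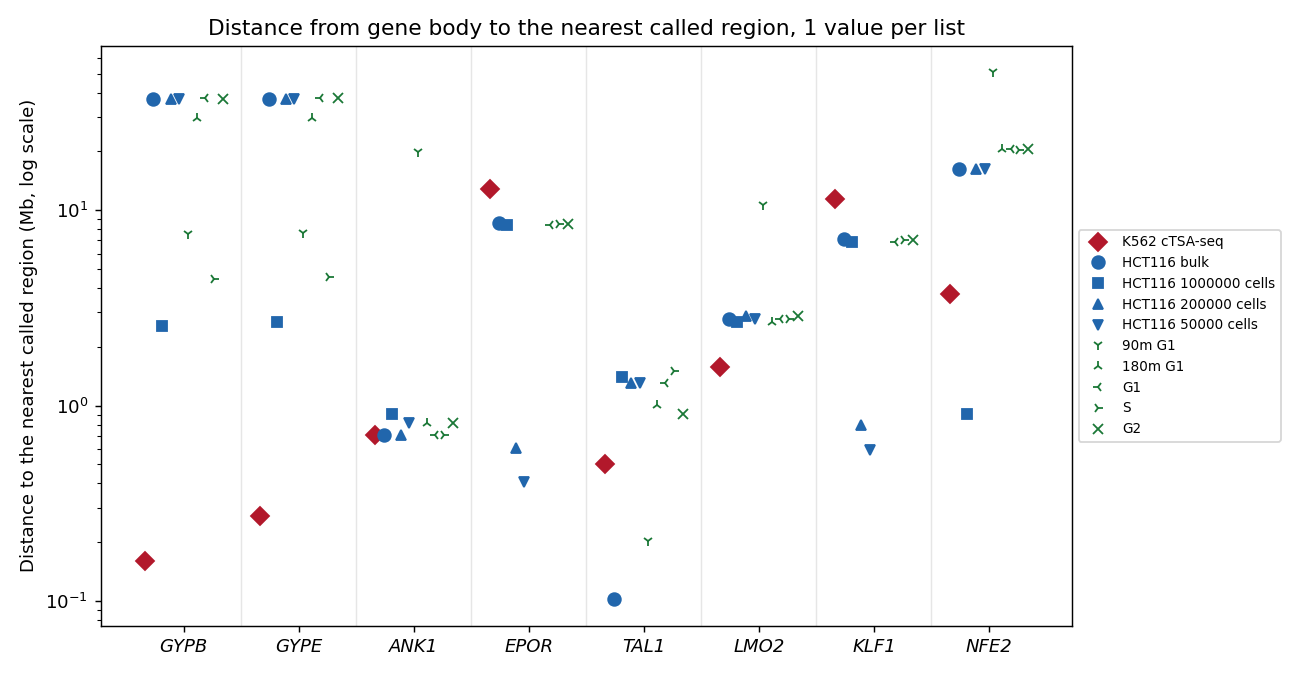
Distance from the gene body to the nearest called region in Mb (y axis, log scale) for the 8 genes, with 1 symbol per list for K562 (red), asynchronous HCT116 cells (blue) and HCT116 stages (green). EPOR and KLF1 have no value in 90m G1 and 180m G1, where chromosome 19 held no region, and K562 lies below every HCT116 symbol for GYPB, GYPE and LMO2.

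Between the lines, 4 of the 8 genes (GYPB, GYPE, LMO2 and NFE2) were nearer to a region in K562 than in HCT116 bulk, ANK1 was at the same distance, and EPOR, KLF1 and TAL1 were farther in K562. Against the range of the 4 asynchronous HCT116 lists, K562 was below for GYPB, GYPE and LMO2, within for ANK1, TAL1 and NFE2, and above for EPOR and KLF1. With K562 TSA-seq, ANK1 (1.75 Mb, against 0.711 to 0.911 Mb) and TAL1 (1.5 Mb, against 0.102 to 1.40 Mb) were above the range as well, and the other 6 genes kept their place. With the 1000000-cell, 200000-cell and 50000-cell lists in place of bulk, 5, 5 and 6 of the 8 genes were nearer in K562. The genes thus showed no common direction, since EPOR and KLF1 were farther in K562 than in each of these lists. The median distance of the 8 genes was 1.15 Mb in K562 cTSA-seq, where it was 1.55 Mb over all protein-coding genes, and 7.85 Mb in HCT116 bulk, where it was 1.85 Mb. It was 7.65 Mb in G1 (2.46 Mb over all genes), 4.52 Mb in S (2.31 Mb) and 7.75 Mb in G2 (2.61 Mb). Over the 6 genes with a distance it was 9.18 Mb in 90m G1 (5.11 Mb) and 11.6 Mb in 180m G1 (2.71 Mb). In the counted samples it was closer to that of all genes, at 2.62 Mb with 1000000 cells (2.36 Mb), 2.09 Mb with 200000 cells (2.32 Mb) and 2.04 Mb with 50000 cells (2.06 Mb). GYPB and GYPE, and likewise EPOR and KLF1, are not independent but count separately in these medians. The middle values were those of EPOR and KLF1 in HCT116 bulk, G1 and G2. In S and with 1000000 cells they were those of GYPB and GYPE. The medians therefore say little about erythroid genes as a group.

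Along the cell cycle, G1, S and G2 gave nearly the same distances for 5 genes. The 3 phases differed by 0.1 Mb for ANK1, EPOR and KLF1, by 0.0937 Mb for LMO2 and by 0.2 Mb for NFE2, that is, by at most 2 windows. They differed by 0.6 Mb for TAL1 and, through the single window in S, by 32.9 Mb for the glycophorin genes. After mitosis, ANK1, LMO2 and NFE2 were nearer to a region at 180 min than at 90 min. GYPB, GYPE and TAL1 were farther at 180 min. The 90m G1 list held only 204 regions, and its median distance over all genes, 5.11 Mb, was the largest of the lists of called regions for HCT116. By the methods, only windows called in each replicate were kept. The 90m G1 and 180m G1 lists, unlike the others of HCT116, are not named consensus lists.

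The sequence around the genes differed too. Within 1 Mb of the start sites, GC content was 37.8% for both glycophorin genes, 42.3% for LMO2, 44.1% for NFE2, 44.8% for ANK1, 45.7% for TAL1, 48.6% for KLF1 and 49.2% for EPOR. The number of other protein-coding start sites in that range was 7 for GYPB and for GYPE, 16 for LMO2, 20 for ANK1, 27 for TAL1, 43 for NFE2, 62 for EPOR and 67 for KLF1. The 2 genes with the lowest GC content and gene number were the nearest to a region in K562 cTSA-seq, and the 2 with the highest were the farthest. This order did not hold in HCT116 bulk, where GYPB and GYPE were the farthest at 37.1 and 37.2 Mb, beyond EPOR at 8.60 Mb and KLF1 at 7.10 Mb. The part of base composition and gene density in the distances was not tested.

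The genes with the most similar neighbourhoods over 7 lists (K562 cTSA-seq, HCT116 bulk and the 5 stages) were FOXO1 and DIPK2B for GYPB, METTL14 and RXYLT1 for GYPE, RBPMS and LRP3 for ANK1, and CNEP1R1 and ZNF423 for TAL1. Their called shares differed from those of the erythroid gene by a mean of 0.00175 and 0.00484 percentage points for GYPB, 0 for GYPE, 0.406 and 0.632 for ANK1, and 3.72 and 3.75 for TAL1. For GYPB and GYPE the match rests on the K562 share alone, because none of their neighbourhood was called in HCT116. The shares of GYPE were met exactly by 39 genes, among which gene length decided. For EPOR, LMO2, KLF1 and NFE2 the likeness says even less. Their neighbourhoods were at 0% in all 7 lists, as were those of 6884 to 7159 further genes. Gene length decided among these ties too and gave SPDYE9 and CFP for EPOR, KANK2 and GEMIN6 for LMO2, RPS2 and LST1 for KLF1, and NANOGNB and RAB1B for NFE2.

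The 56 other erythroid genes, in lists of 18 membrane and blood group genes, 14 genes of haem synthesis and iron, 16 transcription factors and 8 genes of erythropoietin signalling, were rarely called in K562. In K562 cTSA-seq 2 of 56 (3.57%) were called, against 12.6% of all genes, and 36 (64.3%) lay in a nonLAD, against 56.2%. ACKR1, the gene of the Duffy blood group, was called with its whole body, in a K562 region called by cTSA-seq only. In HCT116 bulk it was also called over its whole length, and so it was in every other HCT116 list except 90m G1.

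In HCT116 bulk 10 of the 56 genes (17.9%) were called, against 12.4% of all genes, and 8 of them were not called in K562. These were GYPC and AQP1 among membrane genes, FECH, SLC25A38 and GLRX5 of haem synthesis and iron-sulfur handling, SOX6 and BACH1 among transcription factors, and KIT, the receptor of stem cell factor. GYPC, the gene of glycophorin C, lay wholly in regions of bulk, 180m G1, G1, S, G2 and the 1000000-cell and 50000-cell lists. BACH1 was called in every HCT116 list except 90m G1, with 0.703 to 46.5% of its body. AQP1, FECH, SLC25A38, GLRX5, KIT and SOX6 were called in bulk and in none of the 3 counted samples. For SOX6 1.55% of the body lay in a region in bulk, 90m G1 and G2, 66.2% in 180m G1 and 27.4% in S. KIT was also called in G2, and AQP1 and GLRX5 in 90m G1, each with the whole body. FECH and SLC25A38 were called in no other HCT116 list. With the counted samples in place of bulk the count was 4 (1000000 cells), 3 (200000 cells) and 4 (50000 cells) of 56, or 5.36 to 7.14%, near the 5.79 to 6.82% of all genes.

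At the stages, 14 of the 56 genes (25.0%) were called in 90m G1, against 17.7% of all genes. In sorted G1 4 (7.14%) were called, against 5.76% of all genes. The count was 6 (10.7%) each in 180m G1, S and G2, against 6.15%, 6.48% and 5.38%. The 90m G1 genes included GATA2, ZFPM1, GFI1B, CBFA2T3 and MAFK among transcription factors, which were called in no other HCT116 list, and the share of all genes called was also highest in 90m G1. None of 22 genes of the intestinal epithelium, the tissue from which HCT116 derives, was called in K562 cTSA-seq (12.6% of all genes) or in HCT116 bulk (12.4%). In 90m G1 4 of them (18.2%), CDX1, VIL1, ASCL2 and MUC2, were called, close to the 17.7% of all genes, and at the other stages and in the counted samples none was. Over all protein-coding genes, 1606 (7.97%) were called in K562 cTSA-seq and not in HCT116 bulk, and 1563 (7.75%) the other way round. The 8 erythroid genes belonged to neither group.

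**Figure D4:**
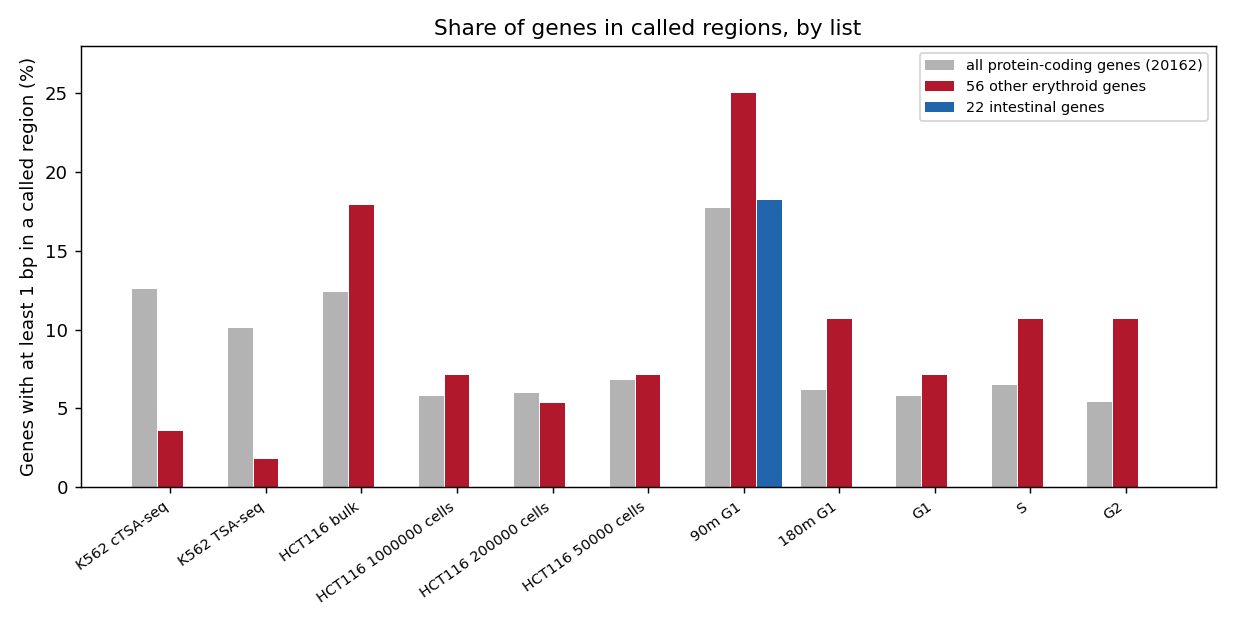
Percent of genes with at least 1 bp in a called region (y axis, from 0) in each list, for all 20162 protein-coding genes (gray), the 56 other erythroid genes (red) and the 22 intestinal genes (blue, absent where the share is 0). The red bar is below the gray bar in both K562 lists and above it in HCT116 bulk and at the 5 stages. The difference is small in sorted G1. In the 3 lists of counted HCT116 cells the bars are close, with red above or below gray depending on the list.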

How the data were processed

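Per the study's methods and the labels, the authors aligned reads to hg19, removed duplicates, brought libraries to equal size, formed log2 ratios of streptavidin pull-down over input per window, standardised them as z-scores and assigned windows to states with a Hidden Markov Model of 3 states. Calls of replicates were intersected. The values deposited by the authors are the start and end of each region in bp, with no signal, ratio, count or depth. The TSA-seq list came from published data. The tools named in the submitters' processing notes include Bowtie2 2.3.2 and bedtools 2.26.0.

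From these lists, genes of GENCODE release 44 mapped to hg19 were placed (1 copy of each pseudoautosomal gene), and overlaps, distances and neighbourhood shares were computed with Python 3.11.15, numpy 2.4.6, pandas 2.3.3 and pysam 0.24.0 and drawn with matplotlib 3.10.9. The interval functions were tested on 500 simulated cases. Promoters came from RefSeq (GRCh38.p14), held 5 of the 8 genes, and were matched base for base to hg19. Each list is 1 merged determination, so no test was run. The rule for the 8 genes used no measured value, but they, the gene lists and the alternatives were chosen with earlier results of these data known. All 8 genes are named, genes of the other lists were named when called in only 1 of K562 cTSA-seq and HCT116 bulk, and 2 similar genes per erythroid gene were named, outside 5 Mb of it. ACKR1 and the genes named within regions or at single stages were named after their values were seen, and 1 gene of the lists is counted but not reported by name. The alternatives were other definitions of a called gene and of distance, other region filters, other lists of the same line, other neighbourhood widths and other backgrounds. Data from hTERT-RPE1 cells, mouse tissue and SLAM-seq were not used here.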

Additional observations from a re-analysis of the deposited data

Results flagged for a closer look

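The 4 lists of asynchronous HCT116 cells were screened for a distance far from the other 3 by Dixon's criterion at 95%. Among groups of independent values from 1 normal distribution, about 1 of 20 meets it by chance. That rate does not carry over here. The lists differ in cell number and are not labelled as replicates, and a distance jumps where a short region appears. The criterion was met by 4 of the 8 genes. GYPB was 2.56 Mb from a region with 1000000 cells, against 37.1 to 37.2 Mb in the other lists, and GYPE, which shares its nearest region, was 2.67 Mb, against 37.2 to 37.3 Mb. NFE2 was 0.905 Mb from a region with 1000000 cells, against 16.2 to 16.3 Mb. The region near the glycophorin genes measured 0.2 Mb and that near NFE2 0.4 Mb, and the labels give 1 pull-down library for 1000000 cells. TAL1 was 0.102 Mb from a region in HCT116 bulk, against 1.3 to 1.4 Mb.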

How the results depend on the processing

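The count of erythroid genes called stayed at 0 in every list of lamina regions under each alternative run. The count in K562 nonLADs fell from 6 to 5 when 50% or 80% of the body was required. The count nearer to a region in K562 than in HCT116 was 4 with bulk. It rose to 5 with the 1000000-cell and with the 200000-cell list and to 6 with the 50000-cell list. Under the other alternatives it stayed at 4. Of 64 recomputed differences in distance between K562 and HCT116, 45 moved by at most 1 window, 15 moved by more and 4 reversed. For TAL1, K562 was 0.4 Mb farther than HCT116 bulk, but the difference was -0.9 Mb with the 1000000-cell list and -0.8 Mb with the 200000-cell and with the 50000-cell list. For NFE2 it was -12.5 Mb with bulk and 2.8 Mb with the 1000000-cell list. The cause was not tested. Of the recomputed differences in neighbourhood share between K562 cTSA-seq and HCT116 bulk, 9 stayed about the same and 7 moved. For GYPB the difference was 48.0 percentage points with 1 Mb on each side, 34.1 with 500 kb and 70.0 with 2 Mb. For GYPE it was 50.0, 22.7 and 70.0, and for TAL1 -20.0, -39.8 and -10.0. The size of these shares thus depends on the width chosen. After the values were seen, the other gene lists were recomputed too. The 2 of 56 erythroid genes called in K562 became 1 by start site, by 50% or by 80% of the body or with TSA-seq, and 0 with the regions shared by both methods. The 10 called in HCT116 bulk became 7 by start site and 8 by 50% or by 80% of the body. They became 4, 3 and 4 with 1000000, 200000 and 50000 cells. With genes of all types as background, the share called rose to 22% in K562 cTSA-seq and 19.4% in HCT116 bulk. The share in K562 nonLADs fell from 56.2% to 42.4%. No paired analysis was possible because each list is already merged over replicates and no result comes from a test, and leaving out a replicate was not possible for the same reason. Without read counts, precision is limited to windows of 100 kb.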
